A study of Rattus norvegicus with 8 samples.

Results

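The 10 genes of hepatocyte transport were followed across 4 groups of female Wistar rat liver, namely liver left in place 8 h after a partial hepatectomy (PH) and livers at 2, 4 and 12 weeks of age. The genes were given as a list of symbols, and each was read from a probe set annotated with that symbol alone (the one with the highest mean over the arrays where a gene had several). This found 9 of the 10 genes, among 14511 genes tested. The uptake carriers were Slc10a1, Slco1a4, Slco1b2 and Slc22a8, and the exporters Abcb11, Abcb4, Abcc2, Abcc3 and Abcg8. The missing one, Slco1a1, lay on a probe set that also names its close relative Slco1a5. Each group had 2 Affymetrix Rat Gene 1.0 ST arrays of whole-liver RNA. The operated rats, whose lateral lobes had been removed, have no stated age, and sham operation was not analysed here. They are set against the 12-week adults, and surgery, age and hour of sampling cannot be told apart between them. Titles speak of biological replicates where the design text has duplicates, so the p-values below measure the spread between these arrays, which may be technical in part. The 12-week arrays differed most from each other, with r = 0.952 and 1838 genes at least 2-fold apart, against 432 to 621 in the other groups. On these 2 arrays, 1256 genes of the olfactory receptor class and its relatives had medians of 4.74 and 3.91. The medians of these genes were 4.64 and 4.17 on the PH arrays, 4.05 and 4.06 at 2 weeks, and 4.06 and 4 at 4 weeks.

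Bile salts circulate between liver and gut. Hepatocytes take them up from the sinusoid through the sodium-dependent carrier Slc10a1 and the sodium-independent Slco carriers, and pump them into the bile canaliculus through Abcb11. Other canalicular pumps add phospholipid (Abcb4), sterols (Abcg8 with its partner Abcg5) and conjugates such as bilirubin glucuronide (Abcc2), while Abcc3 returns conjugates to the blood. Slc22a8 is an organic anion exchanger best known from the kidney proximal tubule and also found in rat liver.

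The RNA of 3 transporters differed between 12 and 2 weeks. In limma, with p adjusted by the Benjamini-Hochberg method over 14511 genes and called under 0.05, 12-week liver differed from 2-week liver in 3 of the 9 genes, against 2.23% of all genes tested: Slco1a4 and Abcc2 were higher and Slc22a8 was lower. Between 12 and 4 weeks 1 of 9 passed, Slc22a8, against 0.11% of all genes. Between 4 and 2 weeks 1 of 9 passed, Slco1a4, against 0.455%. After PH 0 of 9 passed against 12 weeks in limma (2 at an unadjusted p under 0.05), where 0.0345% of all genes did. Many genes reach an unadjusted p under 0.05 in limma. Of the 14511 genes, 872 did after PH, 1616 between 12 and 2 weeks, 649 between 12 and 4 weeks and 1050 between 4 and 2 weeks. The F test for any difference among the 4 groups called 4 of 9 (Slco1a4, Slc22a8, Abcc2 and Abcc3), against 1.79% of all genes. The comparisons share arrays, so their calls are not separate pieces of evidence.

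**Figure D1:**
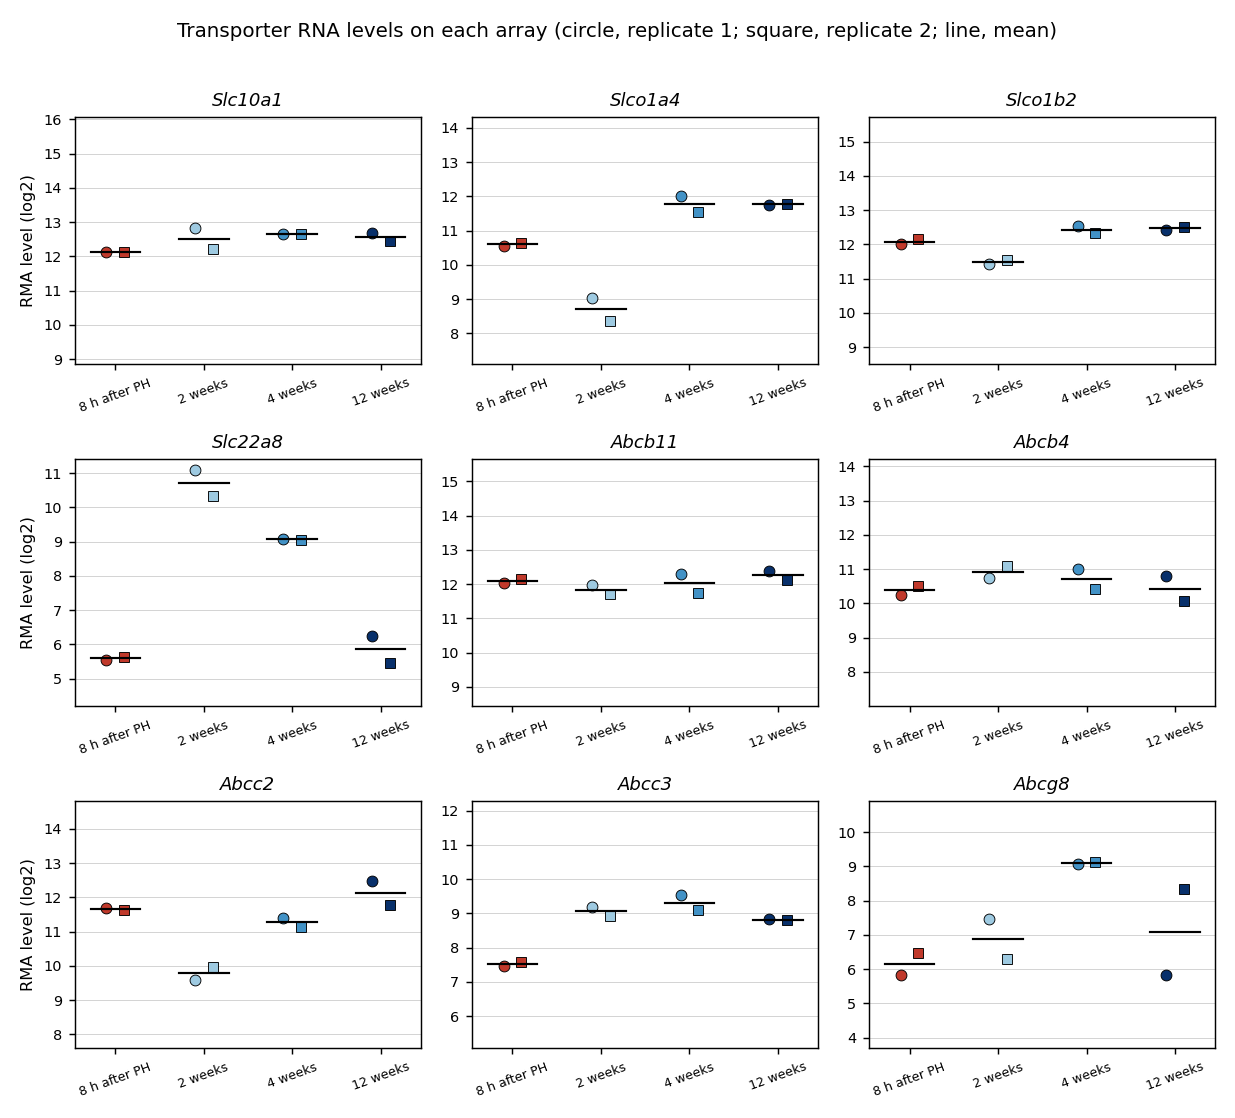
RMA levels (log2, y axis) of the 9 measured transporters on every array, by group (x axis), with the group mean as a line; all panels span the same number of log2 units. Slco1a4 and Abcc2 are lowest at 2 weeks, Slc22a8 is highest at 2 weeks and lowest after PH and at 12 weeks, and the 12-week arrays of Abcg8 lie far apart at 5.83 and 8.34.

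Promoters are shown for Slco1a4, Abcc2 and Slc22a8, the genes called between ages, and for Abcg8, which was not called but whose window overlaps that of its partner Abcg5. RefSeq's table (build GRCr8) held 8 of the 10 genes, each as 300 bases from 250 before to 50 after the gene start it uses, read 5′ to 3′ on the gene's strand. Slco1a4 lies at chr4:176495797-176496096 (minus strand), Abcc2 at chr1:252613625-252613924 (plus), Slc22a8 at chr1:214927034-214927333 (plus) and Abcg8 at chr6:15717681-15717980 (minus). Capitals mark 3 motifs searched on both strands: the HNF1 half-site GTTAAT, the nuclear receptor half-site AGGTCA and the antioxidant response element core TGACNNNGC.
Slco1a4: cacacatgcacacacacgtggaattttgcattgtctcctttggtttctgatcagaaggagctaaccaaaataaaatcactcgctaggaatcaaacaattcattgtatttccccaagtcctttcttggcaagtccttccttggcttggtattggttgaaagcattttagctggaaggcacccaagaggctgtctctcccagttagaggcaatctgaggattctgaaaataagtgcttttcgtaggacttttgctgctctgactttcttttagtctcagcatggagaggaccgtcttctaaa
Abcc2: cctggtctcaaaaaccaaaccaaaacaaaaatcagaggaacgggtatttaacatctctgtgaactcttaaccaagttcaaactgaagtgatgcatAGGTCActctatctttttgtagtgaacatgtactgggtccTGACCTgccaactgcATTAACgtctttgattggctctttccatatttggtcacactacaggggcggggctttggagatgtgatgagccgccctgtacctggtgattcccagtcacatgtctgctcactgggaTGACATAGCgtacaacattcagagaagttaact
Slc22a8: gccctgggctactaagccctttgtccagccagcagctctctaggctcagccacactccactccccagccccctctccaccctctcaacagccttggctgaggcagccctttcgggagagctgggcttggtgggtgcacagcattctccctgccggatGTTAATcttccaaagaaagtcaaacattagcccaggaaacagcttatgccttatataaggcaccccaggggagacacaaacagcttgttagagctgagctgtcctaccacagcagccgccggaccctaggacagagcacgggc
Abcg8: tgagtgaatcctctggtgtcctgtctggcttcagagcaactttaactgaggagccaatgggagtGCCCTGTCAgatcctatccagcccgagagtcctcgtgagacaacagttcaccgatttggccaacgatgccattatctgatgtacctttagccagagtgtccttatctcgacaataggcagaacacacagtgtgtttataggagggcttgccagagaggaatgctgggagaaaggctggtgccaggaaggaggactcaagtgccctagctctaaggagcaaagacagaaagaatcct

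None of these matches overlap one another. The Abcc2 window held all 3 motifs, with 2 nuclear receptor half-sites, 1 HNF1 half-site and 1 antioxidant core. Slc22a8 held 1 HNF1 half-site, Abcg8 held 1 antioxidant core, and in Slco1a4 these letters did not occur. Over 33469 RefSeq promoters of the same length, GTTAAT was present in 7.45%, AGGTCA in 16.2% and TGACNNNGC in 12.1%. Among the 8 windows here, GTTAAT was in 4 (Slc22a8, Abcc2, Slco1b2 and Slc10a1), AGGTCA in 3 (Abcc2, Slco1b2 and Slc10a1) and TGACNNNGC in 2 (Abcc2 and Abcg8). These are letter matches only. The Abcg8 window shares 295 of its 300 bases with that of Abcg5, which reads from the opposite strand at chr6:15717686-15717985.

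Slco1a4, an organic anion carrier of the sinusoidal membrane that also takes up bile salts and cardiac glycosides, had the widest step among the uptake carriers of the Slco family. Its level was 10.56 and 10.63 after PH, 9.02 and 8.37 at 2 weeks, 12.01 and 11.55 at 4 weeks, and 11.76 and 11.78 at 12 weeks. Both 2-week arrays lay below every other array, the PH arrays came next, and the 4- and 12-week arrays overlapped. The 12-week mean exceeded the 2-week mean by 3.08 ± 0.28 (log2, moderated SE), an 8.43-fold difference (adjusted p = 0.001555). The 4-week mean exceeded the 2-week mean by 3.09 ± 0.28 (adjusted p = 0.003264). Both calls held without any 1 of the 8 arrays. Between 12 and 4 weeks the difference was -0.01 ± 0.28, and its sign turned under median centring (0.06) and 75th percentile scaling (0.02).

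Slco1b2, the main liver-restricted carrier of that family in rodents, was likewise lowest at 2 weeks, with the PH group next, over a smaller range. It read 12.00 and 12.17 after PH, 11.42 and 11.55 at 2 weeks, 12.53 and 12.33 at 4 weeks, and 12.42 and 12.52 at 12 weeks. The 2-week arrays were the lowest, and only the 4- and 12-week groups overlapped. The 12-week mean was 0.98 ± 0.21 above the 2-week mean, short of the threshold (adjusted p = 0.06027), which it passed under 3 of 15 alternatives. The 4-week mean differed from the 2-week mean by 0.95 ± 0.21 (adjusted p = 0.1642).

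In the RefSeq gene order Slco1b2, Slco1a4 and Slco1a1 are consecutive protein-coding genes on chromosome 4, followed by Slco1a3 and Slco1a6. The probe set shared by Slco1a1 and Slco1a5 read 7.52 and 7.79 after PH, 6.84 and 7.24 at 2 weeks, 8.08 and 7.86 at 4 weeks, and 7.76 and 8.28 at 12 weeks. Its 2-week arrays were also the lowest, but these values cannot be assigned to either gene and were not tested.

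Slc10a1, the sodium-dependent bile salt carrier, showed little movement. It read 12.14 and 12.12 after PH, 12.82 and 12.21 at 2 weeks, 12.64 and 12.66 at 4 weeks, and 12.67 and 12.45 at 12 weeks. The ages overlapped, and the PH arrays lay just below the rest. The 12-week mean differed from the 2-week mean by 0.05 ± 0.25 and the 4-week mean from the 2-week mean by 0.13 ± 0.25, with sign changes when single arrays were left out. The F test across the 4 groups gave an adjusted p of 0.8309.

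Slc22a8 was lower at 12 than at 2 and 4 weeks and had the widest range of group means of the 9 genes (5.12 log2 units). It read 5.55 and 5.64 after PH, 11.10 and 10.34 at 2 weeks, 9.08 and 9.05 at 4 weeks, and 6.25 and 5.47 at 12 weeks. The 2-week arrays stood above the 4-week arrays, which stood above the PH and 12-week arrays, and the PH and 12-week arrays overlapped. Liver at 12 weeks was lower than 2-week liver by 4.86 on the log2 scale (SE 0.33, adjusted p = 3.1e-04), so that 2-week liver had 29.1-fold the 12-week level. It was lower than 4-week liver by 3.21 (SE 0.33, adjusted p = 0.01267). That call was lost without either 4-week array (adjusted p = 0.1388 and 0.113) and in a fit of the 4- and 12-week arrays alone. The 4-week mean differed from the 2-week mean by -1.66 ± 0.33 (adjusted p = 0.115), which passed under 1 of 15 alternatives. No detection calls were used, and the PH and 12-week levels lie low on the scale, so how much of them is background was not tested.

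Since Slc22a8 is a gene of the kidney proximal tubule, 8 tubule markers were read beside it. Their mean level lay between 5.59 and 5.62 after PH, between 5.33 and 5.35 at 2 weeks, between 5.39 and 5.63 at 4 weeks and between 5.43 and 5.96 at 12 weeks, and the 1 of 8 that passed between 12 and 2 weeks, Lrp2, was higher at 12 weeks. Genes that differ between the sexes in adult rat liver also moved with age. Of 10 such genes, 7 passed between 12 and 2 weeks: Cyp2c12, Cyp2c13, Cyp3a9, Sult2a1, A1bg and Akr1b7 were higher at 12 weeks, and Cyp3a2 was lower, at 6.80 and 6.22 against 13.06 and 12.79 at 2 weeks. Cyp2c13 was low on the scale throughout, at 3.63 and 3.36 at 2 weeks, 5.75 and 6.10 at 4 weeks, and 5.22 and 5.69 at 12 weeks. Cyp2c12, specific to adult females, averaged 9.73 ± 0.32 at 2 weeks, 13.47 ± 0.06 at 4 weeks and 13.44 ± 0.05 at 12 weeks (SD, n = 2 each). Cyp2c11, specific to adult males, read 4.49 and 4.57 at 2 weeks, 7.76 and 8.71 at 4 weeks, and 4.73 and 4.49 at 12 weeks, so it was highest on the 4-week arrays. Between 12 and 4 weeks 5 of the 10 passed, where 0.11% of all genes did. Cyp3a9 and A1bg were higher at 12 weeks, and Cyp2c11, Cyp3a2 and Hao2 were lower. Cyp3a2 read 12.36 and 12.51 at 4 weeks, and Hao2 read 8.79 and 8.94 at 4 weeks against 5.06 and 5.48 at 12 weeks. Between 4 and 2 weeks 3 passed (Cyp2c11, Cyp2c12 and Cyp2c13), all higher at 4 weeks. The part of these sex-dependent genes in the transporter results was not tested.

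Abcc2, the canalicular pump for bilirubin glucuronide and other conjugates, was higher at 12 than at 2 weeks. It read 11.68 and 11.64 after PH, 9.58 and 9.98 at 2 weeks, 11.41 and 11.13 at 4 weeks, and 12.47 and 11.78 at 12 weeks. No group overlapped its neighbour, in the order 2 weeks, 4 weeks, PH and 12 weeks. Liver at 12 weeks was higher than 2-week liver by 2.34 ± 0.29, or 5.06-fold (adjusted p = 0.006731). Without the first 2-week array this difference was 2.14 and the adjusted p 0.06334, while it stayed called without any other single array. The difference between 4 and 2 weeks was 1.49 ± 0.29 (adjusted p = 0.1017) and that between 12 and 4 weeks 0.85 ± 0.29 (adjusted p = 0.8333).

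The bile salt pump Abcb11 and the phospholipid flippase Abcb4 had group means within 0.43 and 0.53 log2 units of each other, near the 0.52 of Slc10a1. Abcb11 read 12.03 and 12.14 after PH, 11.96 and 11.70 at 2 weeks, 12.31 and 11.74 at 4 weeks, and 12.39 and 12.12 at 12 weeks. Abcb4 read 10.26 and 10.51 after PH, 10.74 and 11.08 at 2 weeks, 11.02 and 10.43 at 4 weeks, and 10.80 and 10.06 at 12 weeks. In both genes each group overlapped its neighbour in order of level. The 12-week mean differed from the 2-week mean by 0.43 ± 0.26 for Abcb11 and by -0.48 ± 0.32 for Abcb4, and the F test gave adjusted p of 0.9459 and 0.8945. With 2 arrays a group, these values do not show that the genes were at equal levels.

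Abcc3, the sinusoidal exporter of conjugates, was lowest in the operated livers. It read 7.47 and 7.57 after PH, 9.19 and 8.92 at 2 weeks, 9.53 and 9.09 at 4 weeks, and 8.83 and 8.81 at 12 weeks. Both PH arrays lay below all 6 others, and the 2- and 4-week groups overlapped. The F test called a difference among the 4 groups (adjusted p = 0.02326). That call was lost without either PH array, either 2-week array or the first 4-week array, and the F call of Abcc2 was lost without any of these or the second 4-week array. The mean after PH differed from that at 12 weeks by -1.30 ± 0.24, or 0.407-fold, without passing over all genes (adjusted p = 0.167). The other comparisons were between -0.48 and 0.25.

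Abcg8, which forms the canalicular sterol exporter with Abcg5, was the most scattered of the 9 genes. It read 5.82 and 6.47 after PH, 7.47 and 6.29 at 2 weeks, 9.07 and 9.12 at 4 weeks, and 5.83 and 8.34 at 12 weeks. The 4-week arrays were the highest, and one 12-week array was as low as the PH arrays while the other came close to 4 weeks. The 4-week mean differed from the 2-week mean by 2.21 ± 0.73 (adjusted p = 0.4568) and the 12-week mean from the 4-week mean by -2.01 ± 0.73 (adjusted p = 0.8842). The second of these was -3.27 without the second 12-week array and -0.76 without the first.

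Abcg5 showed the same spread on a probe set of its own, with 7.68 and 8.31 after PH, 9.13 and 8.29 at 2 weeks, 10.55 and 10.90 at 4 weeks, and 7.17 and 9.94 at 12 weeks. Its 12-week arrays differed in the same direction as those of Abcg8. Over the 8 arrays the 2 genes correlated with r = 0.988, the highest value that Abcg8 had with any tested gene. This relation was chosen after its values were seen, and arrays share their processing. As described above, the promoter windows of the 2 genes cover nearly the same bases.

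**Figure D2:**
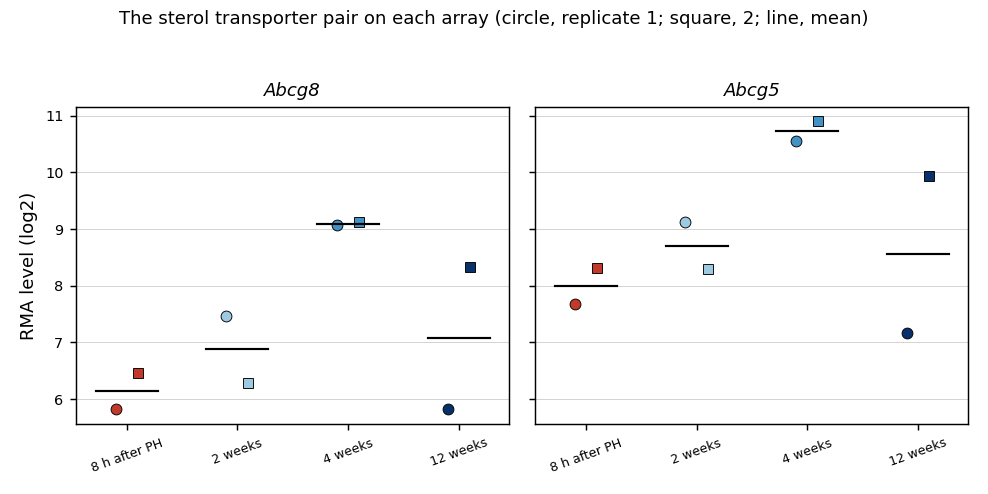
RMA levels (log2, y axis) of Abcg8 and of Abcg5 on each array by group (x axis), with group means as lines. In both genes the 4-week arrays are the highest and the first 12-week array lies far below the second, by 5.83 against 8.34 for Abcg8 and 7.17 against 9.94 for Abcg5.

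After PH all 9 differences from 12 weeks were below 0, with a median of -0.43, while the median over all genes was 0.0017. In the lists described below, 9 of 11 further uptake carriers, 8 of 13 further exporters, 9 of 13 bile acid synthesis genes and 13 of 15 regulators were also below 0. None of the 9 transporters passed, as given above. The 2 largest were those of Abcc3 and of Slco1a4, which differed by -1.17 ± 0.28 (adjusted p = 0.3342). Both sizes were kept without any 1 array, as Abcc3 stayed between -1.35 and -1.25 and Slco1a4 between -1.21 and -1.14. Slc10a1 differed by -0.43 ± 0.25, Slco1b2 by -0.38 ± 0.21, Abcc2 by -0.46 ± 0.29, Slc22a8 by -0.26 ± 0.33, Abcb11 by -0.17 ± 0.26 and Abcb4 by -0.05 ± 0.32. Abcg8 differed by -0.94 ± 0.73, which was -2.20 without the first 12-week array and 0.31 without the second. Slc22a8 and Abcb4 were at 0.13 and 0.32 without the first, and -0.65 and -0.41 without the second. In whole liver, fewer cells of a type and less RNA per cell cannot be told apart.

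**Figure D3:**
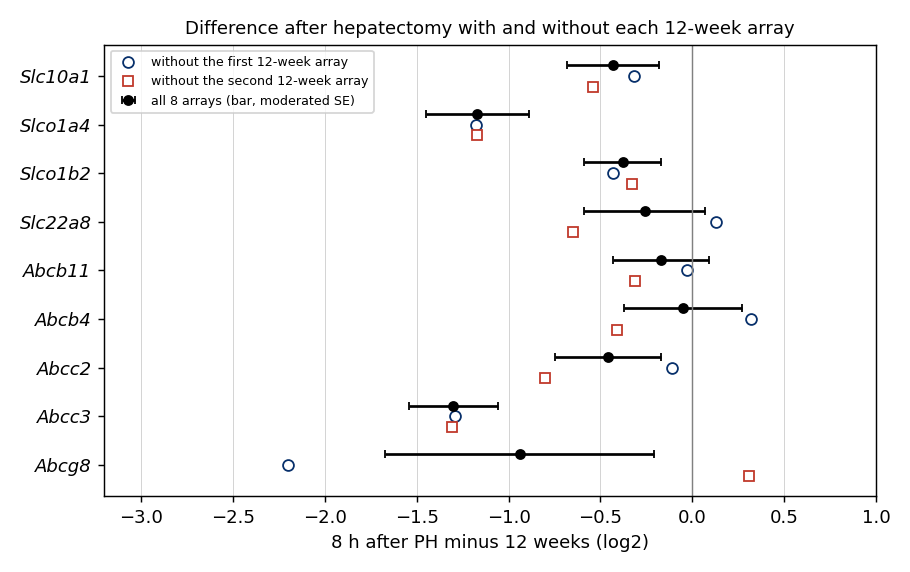
Difference between 8 h after PH and 12 weeks (log2, x axis) for each transporter (y axis), over all 8 arrays with its moderated SE and without each 12-week array. Abcc3 and Slco1a4 stay near -1.30 and -1.17 in all 3 fits, whereas Abcg8 spans -2.20 to 0.31.

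**Figure D4:**
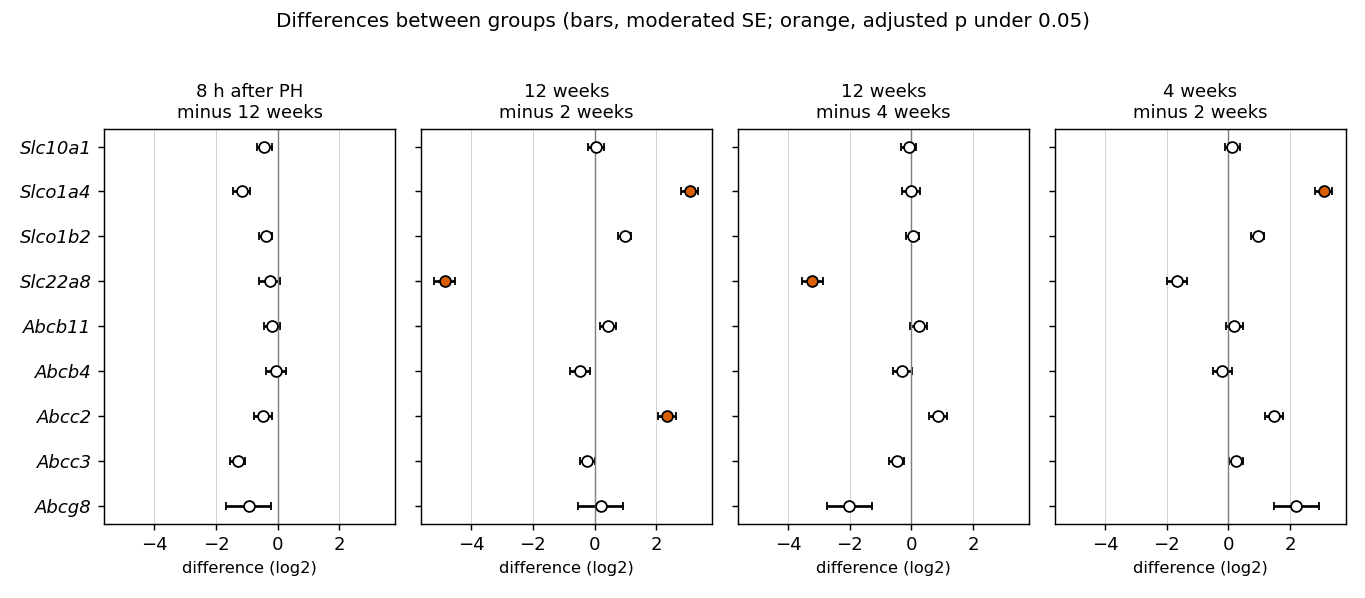
Differences between groups (log2, x axis; bars, moderated SE) for the 9 transporters (y axis) in the 4 comparisons, with filled points for an adjusted p under 0.05. The filled points are Slco1a4, Slc22a8 and Abcc2 for 12 minus 2 weeks, Slc22a8 for 12 minus 4 weeks and Slco1a4 for 4 minus 2 weeks.

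The other transporters of the hepatocyte were read from lists. Of 14 further uptake carriers 11 were measured, and between 12 and 2 weeks 1 passed, the nucleoside carrier Slc29a1 (higher by 1.54 ± 0.27, adjusted p = 0.02617, median of the list 0.45 against 0.014 over all genes). Its mean level was 7.68 after PH; the ages of 2, 4 and 12 weeks averaged 7.03, 8.67 and 8.57, with the 2-week arrays lowest and the PH arrays next, as in Slco1a4. Of 14 further exporters 13 were measured, and between 12 and 2 weeks 1 passed, the drug pump Abcb1a (higher by 1.69 ± 0.30, adjusted p = 0.02617). These calls held without 1 array in 3 of 8 fits for Slc29a1, which the F test also called (adjusted p = 0.04439), and in 1 of 8 for Abcb1a. In the other 3 comparisons 0 of the 11 and 0 of the 13 passed in limma. At an unadjusted p under 0.05 these were 1 and 1 after PH, 0 and 2 between 12 and 4 weeks, and 2 and 2 between 4 and 2 weeks. Over all 14511 genes, 872, 649 and 1050 had such a p in these 3 comparisons. The largest values after PH were 1.07 ± 0.50 for the exporter Abcg2, -0.92 ± 0.30 for Abcb1a, 0.96 ± 0.44 for the citrate carrier Slc13a5 and -0.89 ± 0.27 for Slc29a1.

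Of 13 bile acid synthesis genes, 10 had a difference above 0 between 12 and 2 weeks, where the median over all genes was 0.0137. In limma 2 of the 13 passed, both higher at 12 weeks. These were Cyp7a1, the first and rate-limiting step, and the oxysterol hydroxylase Cyp39a1 (1.77 ± 0.33, adjusted p = 0.03621). The call of Cyp39a1 held in 1 of 8 fits without 1 array. Cyp7a1 read 11.21 and 12.20 at 12 weeks against 6.58 and 7.53 at 2 weeks, and it also passed between 4 and 2 weeks (5.14 ± 0.52, adjusted p = 0.005118). Among 15 measured nuclear receptors and other regulators 1 passed between 12 and 2 weeks, the prolactin receptor Prlr (2.30 ± 0.29, adjusted p = 0.007478). Nr0b2, a repressor that bile acids induce through their receptor, read 6.72 and 6.73 after PH, 8.29 and 7.40 at 2 weeks, 9.53 and 9.45 at 4 weeks, and 8.12 and 8.70 at 12 weeks. Its PH arrays lay below all others, and it differed by -1.68 ± 0.33 between PH and 12 weeks (adjusted p = 0.2085). The F test for any difference among the 4 groups called 2 of the 15 regulators, Nr0b2 (adjusted p = 0.02023) and Prlr (adjusted p = 0.01427). Of the 15 regulators 13 had a difference below 0 between PH and 12 weeks, where the median over all genes was 0.0017. In limma 0 of the 15 passed, and 3 had an unadjusted p under 0.05, as did 872 of all 14511 genes. After Nr0b2, the next largest difference of a regulator was that of the xenobiotic receptor Nr1i3, at -0.83 ± 0.35. The bile acid synthesis enzymes Akr1d1 and Cyp39a1 differed by -1.12 ± 0.32 and -0.78 ± 0.33 there, where 0 of 13 passed in limma (2 at an unadjusted p under 0.05). Of 13 genes of the hepatocyte membrane and its junctions 1 passed, the tight junction gene Cldn1, which was lower at 12 than at 2 weeks by 2.19 (SE 0.38, adjusted p = 0.02617) and held in 2 of 8 fits without 1 array.

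Some genes followed the transporters closely over the 8 arrays, as a description in which all points share the normalization. Slco1a4 was most like the carboxylesterase Ces2g (r = 0.975) and Slco1b2 (r = 0.972). Slc22a8 was most like Cdca7 (r = 0.989) and the mitochondrial isocitrate dehydrogenase Idh2 (r = 0.988), Abcc2 most like Cbln3 (r = 0.974) and Mpeg1 (r = 0.971), and Abcc3 most like Enpp5 (r = 0.967) and the beta-oxidation enzyme Echs1 (r = 0.959). An r above 0.9 was reached by 69 genes with Slco1a4 and by 196 with Slc22a8.

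The label liver was checked with 10 hepatocyte markers, whose mean level lay between 12.86 and 13.18 on every array. Of these 10, 0 passed in any comparison in limma (at most 2 at an unadjusted p under 0.05). Alb read 14.10 to 14.19, where the highest level of any probe set was 14.23. Whether levels so near the top of the scale can show a difference was not tested. Markers of other cells were set side by side for 12 and 2 weeks, where 1616 of all 14511 genes had an unadjusted p under 0.05 in limma. The mean of 7 erythroid markers was 5.48 to 5.55 at 12 weeks against 6.85 to 8.03 at 2 weeks. All 7 were lower at 12 weeks, 3 passed in limma (Alas2, Ahsp and Slc4a1), and 6 had an unadjusted p under 0.05. For 10 stellate and fibroblast markers the mean was 7.27 to 7.29 against 8.52 to 8.79. All 10 were lower at 12 weeks, 3 passed (Des, Reln and Hgf), and 7 had an unadjusted p under 0.05. The mean of 9 neutrophil markers was 4.95 to 5.18 against 5.74 and 7.55 on the 2 arrays of 2 weeks. Of these 9, 0 passed and 8 had an unadjusted p under 0.05. For 8 cholangiocyte markers the mean was 6.12 to 6.25 against 6.18 to 6.73, with overlap (0 passed, 2 at an unadjusted p under 0.05). The mean of 9 macrophage markers was 8.65 and 9.32 against 9.20 and 9.32, with 5 higher and 4 lower at 12 weeks (0 passed). Among them Marco read 7.94 and 5.81 on the 12-week arrays, and Vsig4 8.90 and 5.98. For 7 endothelial markers the mean was 8.66 and 8.87 against 8.86 and 9.34, with 1 higher and 6 lower (0 passed). Between PH and 12 weeks 0 markers of these lists passed. Their part in the transporter results was not tested.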

How the data were processed

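Per the submitters' processing notes, the authors deposited log2 levels, 1 per probe set and array, from Affymetrix Expression Console by RMA (robust multi-array average). Software versions, filters and genome build: not given in the sources used here. The levels ran from 1.32 to 14.23. Of 29214 probe sets, 15316 had 1 symbol in the platform annotation (317 had several, 13581 none), giving 14511 genes. By identifier, 15285 of the 15316 matched a gene of the GRCr8 table, and the others kept their annotated symbol. A linear model of the 4 groups over all 8 arrays was fitted across all genes by lmFit and eBayes of limma 3.58.1 under R 4.3.3 (4 residual and 4.27 prior degrees of freedom), two-sided, with Benjamini-Hochberg adjustment over all genes and a threshold of 0.05. An exact permutation test of 2 against 2 arrays cannot go below p = 0.333. Differences are the older minus the younger group, and PH minus 12 weeks.

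All listed transporters were named, and so were the called genes of the other lists. For the transporter, bile acid synthesis and regulator lists, the 2 genes with the largest difference after PH were also named. Genes most like a transporter are the 2 with the highest Pearson r. The members and lists were chosen with earlier results of these data known. No probes of 6 listed sex chromosome genes were measured under their own symbol. Alternatives were median centring, 75th percentile scaling, the replicate number as a block, genes at or above the median level, the mean of a gene's probe sets, a variance trend, the 2 groups alone and leaving out each array. The numbers 1 and 2 of the titles were not taken as pairs.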

Additional observations from a re-analysis of the deposited data

How the results depend on the processing

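With 2 arrays a group and no detection calls, small differences and levels near the bottom of the scale are not resolved. Over 15 alternatives, 510 of 540 differences of the 9 transporters kept their direction and their side of the threshold. Of the rest, 6 became called, 4 lost the call and 20 turned sign, none of them a called one. The causes were not tested. Much of this count was fixed in advance. The block, the variance trend, the 2 groups alone, the level filter and the mean of probe sets leave a transporter's difference unchanged. So does leaving out an array of a group not compared. Most of the differences were also not called in the main fit.

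With the replicate number as a block, 2 transporters were called between 4 and 2 weeks (Slc22a8 with Slco1a4), and Slco1b2 passed between 12 and 2 weeks, as it did with median centring and with the variance trend. The labels tie the numbers to no shared animal or day. The deviations of first arrays correlated over genes at 0.181 to 0.568 in 5 of 6 pairs of groups and at 0.023 between 2 and 12 weeks, so a shared effect of the number was not settled and the block was kept as an alternative. In fits of the 2 groups alone 0 were called between 12 and 4 weeks. Slco1a4 differed by 0.06 (median centring) and 0.02 (75th percentile scaling) between 12 and 4 weeks. Without 1 array, the calls were 0 to 1 between 12 and 4 weeks, 1 to 2 between 4 and 2 weeks (Abcc2 with Slco1a4 without either 12-week array) and 2 to 5 by the F test. Abcc2 and Abcc3 dropped out of it without either PH array, either 2-week array or the first 4-week array, and Abcc2 alone without the second; Abcg8 joined without either 12-week array.

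Sign changes without 1 array, as ranges: after PH, Slc22a8 -0.65 to 0.13, Abcb4 -0.41 to 0.32 and Abcg8 -2.20 to 0.31; between 12 and 2 weeks, Slc10a1 -0.26 to 0.36 and Abcg8 -1.05 to 1.46; between 12 and 4 weeks, Slc10a1 -0.19 to 0.02, Slco1a4 -0.24 to 0.22, Slco1b2 -0.07 to 0.14, Abcb11 -0.05 to 0.52 and Abcb4 -0.66 to 0.07; between 4 and 2 weeks, Slc10a1 -0.17 to 0.44, Abcb11 -0.09 to 0.48 and Abcb4 -0.48 to 0.11.

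Over all genes the calls were 5 after PH (13 with median centring, 9 with 75th percentile scaling, 41 blocked, 2 with 2 groups, 1 to 11 without 1 array), 323 between 12 and 2 weeks (515 blocked, 140, 101 to 382), 16 between 12 and 4 weeks (30 blocked, 7, 5 to 24), 66 between 4 and 2 weeks (129 blocked, 26 to 110) and 260 by the F test (486 blocked, 86 to 367). Median centring moved the median difference of all genes between 12 and 2 weeks to 0.127, against 0.014.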
